A study of Mus musculus with 10 samples.

Results

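Slc32a1, Dlx1 and Dlx6 are 3 genes of GABA neurons, and their RNA levels were followed across 10 libraries of mouse cortex by genotype and by the level of the striatal marker Ppp1r1b. They were taken by name, as the vesicular GABA transporter and a pair of Dlx factors of inhibitory neurons. The choice was made with earlier results of these data known. They are 3 of 7385 genes for which a level could be formed. All 3 passed the filter on low counts, which 2019 genes passed in all. The tissue came from 5 mice homozygous for the dTPR1 allele, aged 541 to 630 days, and 5 wild-type mice, aged 442 to 663 days, all on the C57BL/6 background. The allele, which the labels write as dTPR-/dTPR-, removes the TPR1 domain of STI1, the co-chaperone encoded by Stip1 that connects HSP70 with HSP90. Each library held the RNA of a single piece, about 3 mm in size, cut from the frozen cortex of an animal. The sex of the mice and the cortical area of the piece are not given in the sources used here.

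GABA is the main inhibitory transmitter of the forebrain. Slc32a1 encodes the vesicular transporter (VGAT) that loads GABA and glycine into synaptic vesicles, and marks the inhibitory neurons of cortex and striatum. Dlx1 and Dlx6 encode homeobox transcription factors of the Dlx family, which act in progenitors of the embryonic ventral forebrain and direct their descendants towards GABA neuron fates. Those descendants include the interneurons that migrate into the cortex and the medium spiny projection neurons of the striatum. The medium spiny neurons are rich in Ppp1r1b (DARPP-32), an inhibitor of protein phosphatase 1 regulated by dopamine signalling. Cortex and striatum lie next to each other, separated by a sheet of white matter.

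Reads were mostly counted at IDs antisense to the expressed genes: 94.2% of counts belonged to gene IDs facing an exon annotated on the opposite strand. The RNA of each member was therefore read at the ID that faces it, where the member held at least 90% of the opposite exon bases. This placement was inferred from positions and counts, not from reads, and 1 ID served each member. Slc32a1 (ENSMUSG00000037771.11, GRCm38 chr2:158610767-158615748, plus strand) was counted at the antisense ID Gm14205 (chr2:158610910-158611820). Of the 739 exon bases of that ID, 697 (94.3%) face the first exon of Slc32a1, 332 of them in its 5′ UTR and 365 in its coding sequence, and the other 42 face its intron. Slc32a1 was thus read within exon sequence, over 24.9% of its exon bases. The stretch shown is the start of the coding sequence that faces the counted ID, with the start codon in capitals (GENCODE M21, chr2:158611242-158611391, plus strand, 5′ to 3′).
Slc32a1: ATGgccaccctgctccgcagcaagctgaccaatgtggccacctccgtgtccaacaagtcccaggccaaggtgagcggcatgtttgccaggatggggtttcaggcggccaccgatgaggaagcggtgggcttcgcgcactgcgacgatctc

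Dlx6 (ENSMUSG00000029754.13, chr6:6863334-6868568, plus strand) was counted at Dlx6os2 (chr6:6863797-6865150), an ID of 1354 exon bases. Of these, 1250 face an intron of Dlx6 and 104 (7.68%) face its coding exons. Most of the bases at which Dlx6 was counted are therefore bases that splicing removes. The coding bases are shown because they are all that the counted ID shares with the spliced Dlx6 transcript: the 31 capitals are the end of the first exon and the 73 lower-case letters the start of the second (chr6:6863797-6865150 with the intron left out, plus strand, 5′ to 3′).
Dlx6: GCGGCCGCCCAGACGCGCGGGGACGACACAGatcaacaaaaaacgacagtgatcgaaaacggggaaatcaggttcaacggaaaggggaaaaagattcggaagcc

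Dlx1 (ENSMUSG00000041911.3, chr2:71528113-71533981, plus strand) was counted at Dlx1as (chr2:71516454-71537891), an antisense RNA gene of 1630 exon bases that spans Dlx1 and extends beyond both its ends. Here 335 bases (20.6%) face Dlx1, all in its 3′ UTR, and the other 1295 lie outside Dlx1. Of those 1295, 565 face introns of Metap1d, a neighbouring gene for a mitochondrial methionine aminopeptidase. The level given for Dlx1 therefore includes any reads from the bases outside it, and they could not be told apart from reads of Dlx1. Ppp1r1b (chr11:98348404-98357796) was counted at 1700003D09Rik, where 460 of 1389 exon bases face its exons. Another 882 face its introns and 47 lie outside it, so the marker too was counted mostly over intron bases.

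**Figure D1:**
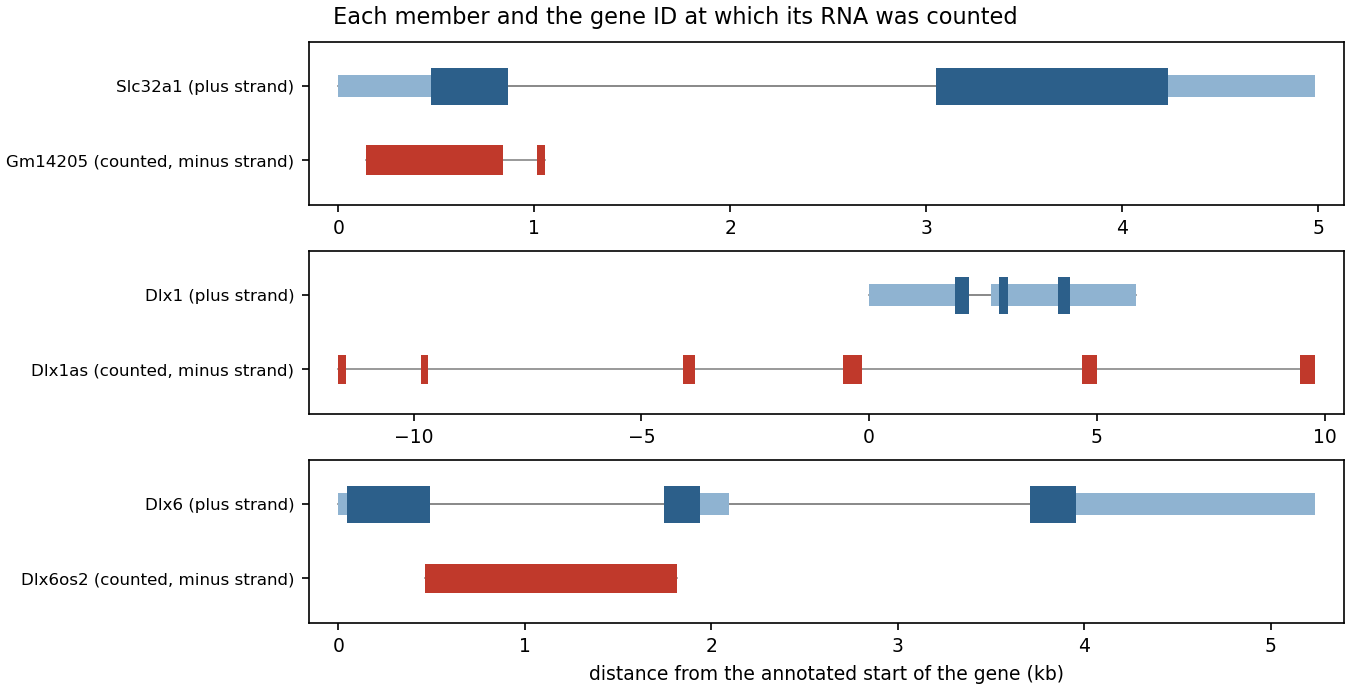
Position of each member (blue, plus strand, coding exons as tall dark boxes and other exons as low light boxes) and of the exons of the ID at which it was counted (red, minus strand), against the distance in kb from the annotated start of the member. Gm14205 lies over the first exon of Slc32a1, Dlx6os2 mostly over an intron of Dlx6, and the exons of Dlx1as mostly outside Dlx1.

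Library totals ran from 689226 to 924559 counts in dTPR1 homozygous and from 667751 to 927242 in wild-type libraries, so that 3 counts were worth 3.18 to 4.31 CPM (counts scaled to a common library total, with TMM factors). Stip1 itself had 0, 8, 0, 5 and 0 counts in dTPR1 homozygous animals 1 to 5, and 0, 4, 0, 8 and 0 in wild-type animals 1 to 5. Stip1 has no ID that faces it under the rule, so its RNA was not measured here and the allele was not checked by expression. Wild-type animals 3 and 2 had the highest Ppp1r1b, at 1976 and 1329 CPM, with wild-type animal 4 next at 942 CPM, and the fits are also given without animals 2 and 3. Without molecular identifiers, PCR copies cannot be set apart, so counting intervals cover counting error alone.

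Slc32a1 had 592, 911, 346, 352 and 493 counts in dTPR1 homozygous animals 1 to 5, and 514, 1291, 1518, 509 and 426 in wild-type animals 1 to 5. On the CPM scale these were 731, 1257, 495, 384 and 673 in dTPR1 homozygous cortex, and 696, 1511, 1790, 732 and 452 in wild-type cortex. The 2 highest libraries were wild-type animals 3 and 2 and the next was dTPR1 homozygous animal 2. The other 7 lay between 384 and 732 CPM with the genotypes mixed. Group means were 708 ± 337 CPM in dTPR1 homozygous and 1036 ± 580 CPM in wild-type cortex (SD, n = 5 each), and the groups overlapped.

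Dlx1 had 112, 127, 71, 40 and 66 counts in dTPR1 homozygous animals 1 to 5, and 31, 111, 72, 42 and 59 in wild-type animals 1 to 5. In CPM these were 138.3, 175.2, 101.5, 43.6 and 90.1 in dTPR1 homozygous cortex, and 42.0, 129.9, 84.9, 60.4 and 62.5 in wild-type cortex. The order differed from that of Slc32a1: dTPR1 homozygous animals 2 and 1 were highest, wild-type animal 2 came next, and wild-type animal 3 had rank 6 of 10. Means were 109.7 ± 49.8 CPM in dTPR1 homozygous and 75.9 ± 33.8 CPM in wild-type cortex (SD, n = 5 each). The groups overlapped, with dTPR1 homozygous animal 4 and wild-type animal 1 lowest and within the counting error of each other.

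Dlx6 had 38, 49, 16, 12 and 12 counts in dTPR1 homozygous animals 1 to 5, and 18, 66, 75, 20 and 30 in wild-type animals 1 to 5. In CPM these were 46.9, 67.6, 22.9, 13.1 and 16.4 in dTPR1 homozygous cortex, and 24.4, 77.2, 88.5, 28.8 and 31.8 in wild-type cortex. Its 3 highest libraries were those of Slc32a1, wild-type animals 3 and 2 and dTPR1 homozygous animal 2 in that order. Its 3 lowest were dTPR1 homozygous animals 4, 5 and 3. Means were 33.4 ± 23.3 CPM in dTPR1 homozygous and 50.1 ± 30.3 CPM in wild-type cortex (SD, n = 5 each), again with overlap. Depth limits this gene most: the 12 counts of dTPR1 homozygous animal 4 have an exact Poisson 95% interval of 6.77 to 22.9 CPM, so neighbours among the 6 lowest libraries were not separable by counting.

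Ppp1r1b had 231, 304, 302, 70 and 478 counts in dTPR1 homozygous animals 1 to 5, and 269, 1136, 1675, 655 and 307 in wild-type animals 1 to 5. In CPM its means were 373 ± 212 in dTPR1 homozygous and 987 ± 693 in wild-type cortex (SD, n = 5 each). Its highest library held 25.9 times the CPM of its lowest, against 4.66 times for Slc32a1, 4.17 times for Dlx1 and 6.76 times for Dlx6. The width of the marker's range rested on dTPR1 homozygous animal 4: without it the ratio was 6.93 for Ppp1r1b, 3.96 for Slc32a1, 4.17 for Dlx1 and 5.40 for Dlx6. Per kb of exon in the counted ID, the mean level over the 10 libraries was 1180 CPM for Slc32a1, 490 for Ppp1r1b, 57.0 for Dlx1 and 30.8 for Dlx6. These levels per kb describe the counted IDs, since the share of each that faces spliced RNA of the member differs.

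**Figure D2:**
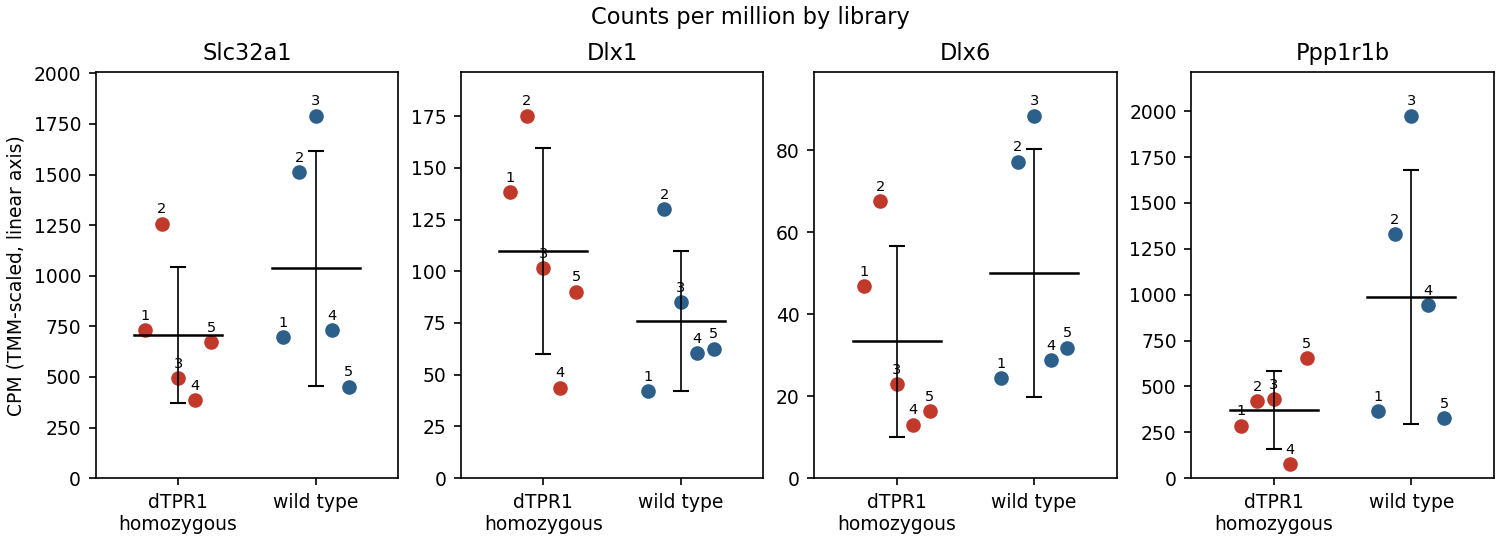
CPM (TMM-scaled, linear axes from 0) of Slc32a1, Dlx1, Dlx6 and Ppp1r1b in each library, with dTPR1 homozygous animals in red on the left of each panel, wild-type animals in blue on the right, animal numbers beside the points, and the mean and SD of 5 libraries in black. The groups overlap in each panel, and wild-type animals 2 and 3 are the highest for Slc32a1, Dlx6 and Ppp1r1b but not for Dlx1.

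None of the 3 members passed the test between genotypes, and their fold changes did not share a direction. In edgeR's quasi-likelihood test the log2 fold change of dTPR1 homozygous over wild-type cortex was -0.55 ± 0.42 (SE) for Slc32a1, 0.53 ± 0.37 for Dlx1 and -0.59 ± 0.53 for Dlx6. Unadjusted p-values were 0.217, 0.178 and 0.278 in that order, and the Benjamini-Hochberg adjusted p was 0.999 for each. In all, 0 of 2019 genes passed (0.0%), with 57 (2.82%) at an unadjusted p under 0.05; DESeq2 also called 0, of 5158 genes with 138 under that unadjusted threshold, and limma-voom 0, of 2019 with 87. In a bulk sample, fewer cells of a type and less RNA per cell cannot be told apart. An exact permutation test of the mean log2 CPM (two-sided, 252 arrangements, smallest possible p 0.0079) gave differences of -0.48 for Slc32a1 (p = 0.317), 0.48 for Dlx1 (p = 0.270) and -0.60 for Dlx6 (p = 0.310).

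With 1 library left out the log2 fold change ran from -0.85 (without dTPR1 homozygous animal 2) to -0.26 (without wild-type animal 3) for Slc32a1 and from -1.01 to -0.29 for Dlx6 without the same animals. For Dlx1 it ran from 0.30 without dTPR1 homozygous animal 2 to 0.81 without wild-type animal 2. It also moved by over 1.5 times to -0.36 for Slc32a1 and -0.37 for Dlx6 without wild-type animal 2, and to -0.38 for Dlx6 without dTPR1 homozygous animal 4. The signs for Slc32a1 and Dlx6 rested on wild-type animals 2 and 3. Without those libraries the log2 fold change was 0.18 ± 0.33 for Slc32a1, 0.99 ± 0.42 for Dlx1 and 0.23 ± 0.60 for Dlx6, with an adjusted p of 0.996 for each in edgeR. In mean log2 CPM the difference without them was 0.09 for Slc32a1 and -0.01 for Dlx6. With the Ppp1r1b level as a term in the model the values were 0.26 ± 0.32 for Slc32a1, 1.11 ± 0.40 for Dlx1 and 0.26 ± 0.60 for Dlx6. Of these the Dlx1 value had an unadjusted p of 0.0138 and an adjusted p of 1.00 in edgeR. Ppp1r1b itself had a log2 fold change of -1.41 ± 0.63 (unadjusted p = 0.0517, adjusted p = 0.999, edgeR), and an exact permutation p of 0.111.

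All 3 members had a positive slope on Ppp1r1b across the libraries with genotype in the model, with the smallest p for Slc32a1, but none passed the adjusted threshold. The slope, in log2 CPM of the gene per log2 CPM of Ppp1r1b, was 0.51 ± 0.13 (SE) for Slc32a1, 0.43 ± 0.18 for Dlx1 and 0.54 ± 0.25 for Dlx6. At equal genotype, cortex with 2 times the Ppp1r1b level thus had 1.43 times the Slc32a1, 1.35 times the Dlx1 and 1.46 times the Dlx6 by the fit. Unadjusted p-values were 0.00141, 0.0246 and 0.0446, and adjusted p-values in edgeR's quasi-likelihood test were 0.568, 0.882 and 0.974. All 3 were under 0.05 before adjustment with a positive slope, as were 50 of 2018 genes (2.48%; 95, or 4.71%, with slopes of either sign), and the median slope of all genes was 0.0026. Of the 2018 genes, 2 (0.0991%) passed the adjusted threshold, and both were striatal markers from the list used here. They were Penk, the precursor of the enkephalins, at 1.18 ± 0.15 (adjusted p = 0.000837 in edgeR) and the retinoic acid receptor gene Rarb at 0.92 ± 0.14 (adjusted p = 0.00434 in edgeR). The marker list was chosen with earlier results of these data known, so its holding both genes is no independent check. Without wild-type animals 2 and 3 the slopes were 0.34 ± 0.16 for Slc32a1, 0.39 ± 0.24 for Dlx1 and 0.30 ± 0.38 for Dlx6, each above 0.05 before adjustment and with an adjusted p of 0.999 in edgeR's quasi-likelihood test. The Dlx1 slope was 0.29 ± 0.22 without dTPR1 homozygous animal 4 (adjusted p = 0.886 in edgeR) and 0.16 ± 0.17 without genotype in the model (adjusted p = 0.963). By unadjusted p the members ranked 5 (Slc32a1), 52 (Dlx1) and 91 (Dlx6) among the 2018 genes.

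**Figure D3:**
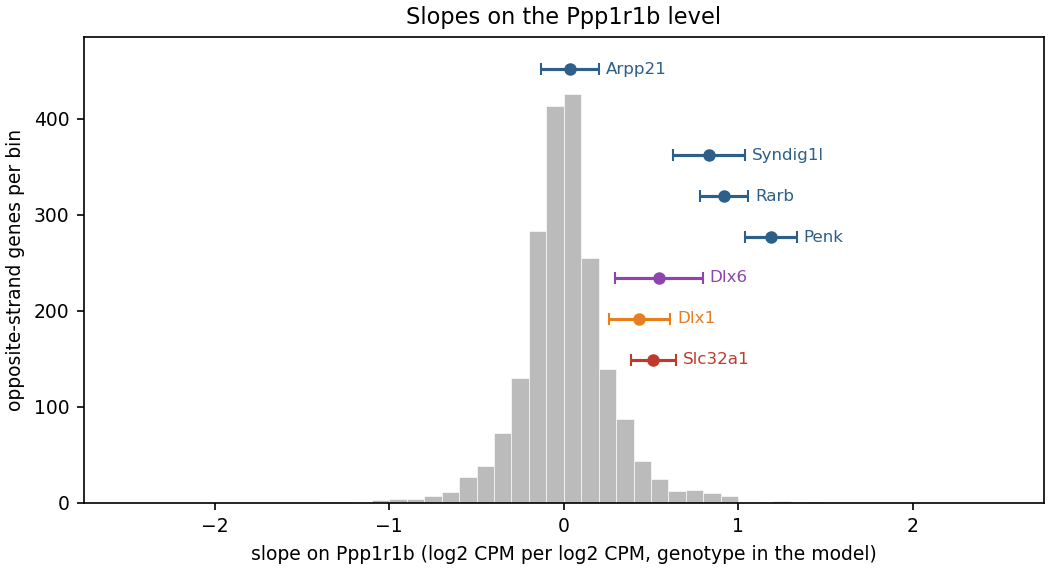
Slope on the log2 CPM of Ppp1r1b, with genotype in the model, for the genes tested (grey histogram, bins along the horizontal axis) and for 7 named genes (points with SE bars; height is arbitrary). The 3 members sit between 0.43 and 0.54, above most genes, below the striatal markers Penk, Rarb and Syndig1l and above the striatal marker Arpp21 at 0.03.

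The slope of Slc32a1 passed or missed the adjusted threshold by the markers that made the level. With the mean log2 CPM of Penk, Rarb and Syndig1l in place of Ppp1r1b it was 0.57 ± 0.093 (adjusted p = 0.0102 in edgeR). Those 3 are the markers that follow Ppp1r1b; with Arpp21, the other tested one, in the mean the slope was 0.73 ± 0.15 (adjusted p = 0.142), an alternative added after the data were seen. Without the filter on low counts the slope on Ppp1r1b was 0.51 ± 0.089 (adjusted p = 2.64e-05 in edgeR). The slope itself hardly changed from 0.51 ± 0.13, so the lower p came with a smaller SE. In that setting small p-values were more frequent among all genes. Unadjusted p was under 0.05 for 400 of 5175 genes by level, against 95 of 2018 with the filter. By genotype it was so for 540 of 5176, against 57 of 2019. That pass is thus weak evidence. The adjusted p of Dlx1 and Dlx6 stayed above 0.05 in each alternative run, between 0.479 and 1.00 for Dlx1 and between 0.478 and 1.0 for Dlx6.

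As plain correlations over the 10 animals, Slc32a1 had r = 0.78 with Ppp1r1b (permutation p = 0.00566, adjusted over the 3 relations with Ppp1r1b 0.0170) and Spearman's rho = 0.72 (permutation p = 0.0233, adjusted 0.0699). Dlx6 had r = 0.65 (permutation p = 0.0413, adjusted 0.0619) and rho = 0.48 (permutation p = 0.167, adjusted 0.250), and Dlx1 had r = 0.34 (permutation p = 0.336) and rho = 0.16 (permutation p = 0.657). Without dTPR1 homozygous animal 4 the r of Dlx1 was 0.017 (exact permutation p = 0.964). The relation of Slc32a1 rested in part on single libraries: its adjusted p was 0.0860 without dTPR1 homozygous animal 4 (r = 0.72), 0.0736 without wild-type animal 2 (r = 0.74) and 0.118 without wild-type animal 3 (r = 0.69), in exact permutation tests. Without dTPR1 homozygous animal 4 and wild-type animal 3, the 2 farthest from the median of Ppp1r1b, r was 0.55 for Slc32a1 (exact permutation p = 0.152), 0.067 for Dlx1 (p = 0.871) and 0.20 for Dlx6 (p = 0.639). Without wild-type animals 2 and 3 it was 0.53, 0.29 and 0.29 in the same order.

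With all 10 libraries, Dlx1 lay closer to Ppp1r1b within genotypes than across them. With each value taken as a deviation from its genotype mean, its r with Ppp1r1b was 0.70 (permutation within genotypes, 14400 arrangements, p = 0.0444, adjusted 0.0667), against 0.34 when genotype was ignored; the change in r was not tested. For Slc32a1 it was 0.76 (permutation p = 0.0243, adjusted 0.0667) and for Dlx6 0.57 (permutation p = 0.105, adjusted 0.105). In the plot of log2 levels, the dTPR1 homozygous points for Dlx1 lie above the wild-type points at similar Ppp1r1b, with dTPR1 homozygous animal 4 at the low end of both genes. The r within genotypes was not computed without that animal. With genotype in the model the Dlx1 slope on Ppp1r1b without it was 0.29 ± 0.22 (unadjusted p = 0.210 in edgeR).

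**Figure D4:**
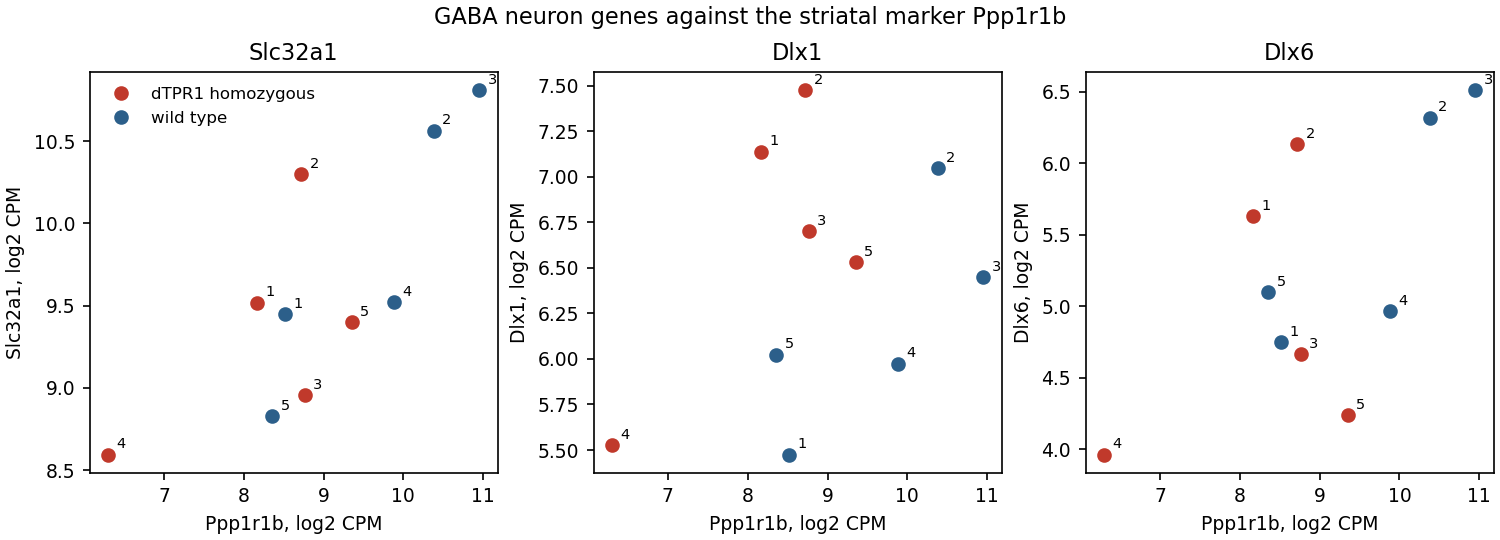
log2 CPM (prior count 2) of Slc32a1, Dlx1 and Dlx6 against that of Ppp1r1b in 10 libraries, dTPR1 homozygous in red and wild type in blue, with animal numbers beside the points. Slc32a1 rises with Ppp1r1b over both genotypes (r = 0.78), Dlx6 less closely (r = 0.65), and for Dlx1 the genotypes lie at different heights (r = 0.34).

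With 5 libraries a genotype, no correlation was computed within a genotype, and slopes stand in for it. Least-squares slopes on Ppp1r1b in dTPR1 homozygous and in wild-type libraries were 0.32 and 0.66 for Slc32a1, 0.44 and 0.37 for Dlx1, and 0.27 and 0.60 for Dlx6. The test of the difference between them, in edgeR, gave -0.30 ± 0.25 (SE) for Slc32a1, 0.09 ± 0.35 for Dlx1 and -0.24 ± 0.52 for Dlx6, with an adjusted p of 0.999 for each. None of the 2018 genes passed (0, or 0.0%), with 64 (3.17%) at an unadjusted p under 0.05. The dTPR1 homozygous slopes leaned on animal 4, lowest in Ppp1r1b. Without it the difference was -0.79 ± 0.54 for Slc32a1, -0.93 ± 0.67 for Dlx1 and -1.91 ± 1.03 for Dlx6. The adjusted p in edgeR was 0.998 for each. In dTPR1 homozygous animals 1, 2, 3 and 5 Ppp1r1b was 285, 419, 432 and 652 CPM. In the same order Slc32a1 was 731, 1257, 495 and 673 CPM, Dlx1 138.3, 175.2, 101.5 and 90.1, and Dlx6 46.9, 67.6, 22.9 and 16.4. None of the 3 rose steadily with Ppp1r1b there. The sign of this difference changed for each member under some alternative. For Slc32a1 it did so without wild-type animals 2 and 3 and with the other striatal markers as level, for Dlx6 under these and without dTPR1 homozygous animal 5. For Dlx1 it did so without any of dTPR1 homozygous animals 2 and 4 and wild-type animals 3 and 5. No difference in slope between genotypes was called.

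The members also varied with each other. Dlx6 and Slc32a1 had r = 0.88 over the 10 libraries (permutation p = 0.00121, adjusted over the 3 pairs 0.00363) and rho = 0.84 (permutation p = 0.00395, adjusted 0.0118). Without wild-type animals 3 and 2, the libraries farthest from the median of Slc32a1, r was 0.75 (exact permutation p = 0.0320, adjusted 0.0707). Dlx1 had a higher r with the others within genotypes than across them, a change that was not tested: its r with Dlx6 was 0.64 (permutation p = 0.0516, adjusted 0.0774; rho = 0.49, p = 0.156) over all libraries and 0.89 in deviations from the genotype means (permutation p = 0.000486, adjusted 0.00146). With Slc32a1 it was 0.55 (permutation p = 0.104; rho = 0.42, p = 0.234) and 0.78 (permutation p = 0.0126).

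Ratios between members were formed after these values had been seen, so their p-values describe a pattern noticed in the same data. The log2 ratio of Dlx1 over Dlx6 was 1.51, 1.34, 2.03, 1.56 and 2.29 in dTPR1 homozygous animals 1 to 5, and 0.73, 0.73, -0.06, 1.01 and 0.92 in wild-type animals 1 to 5. Every dTPR1 homozygous library lay above every wild-type one. Means were 1.75 ± 0.40 in dTPR1 homozygous and 0.67 ± 0.42 in wild-type cortex (SD, n = 5 each). The difference of 1.08 had an exact permutation p of 0.00794, the smallest that 5 against 5 can give, and 0.0238 after adjustment over the 3 ratios. Of the ratios of Dlx1 to each of the other 2018 tested genes, 11 (0.545%) were separated in this way with dTPR1 homozygous higher, and of the ratios of each other gene to Dlx6, 2 (0.0991%) were. The difference was 0.90 to 1.18 with 1 library left out and 0.86 without wild-type animals 2 and 3; groups that are fully apart stay so when libraries are removed, so this is no further check.

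The ratio of Dlx1 over Slc32a1 was also higher in dTPR1 homozygous cortex, at -2.68 ± 0.34 against -3.64 ± 0.58 in wild-type cortex (log2, SD, n = 5 each; exact permutation p = 0.0317, adjusted 0.0476). Wild-type animal 5 lay within the dTPR1 homozygous range. The difference was 0.96, and 0.76 without wild-type animals 2 and 3 (exact permutation p = 0.143). With 1 library left out the exact p rose to 0.0635 for dTPR1 homozygous animals 1 and 3 and for wild-type animals 1, 2, 3 and 4, with differences from 0.78 to 0.99. The ratio of Dlx6 over Slc32a1 was -4.43 ± 0.49 in dTPR1 homozygous and -4.31 ± 0.37 in wild-type cortex (exact permutation p = 0.659). Because 1295 of the 1630 exon bases at which Dlx1 was counted lie outside Dlx1, these ratios compare RNA over the counted IDs. The part of reads from outside Dlx1 in them was not tested.

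**Figure D5:**
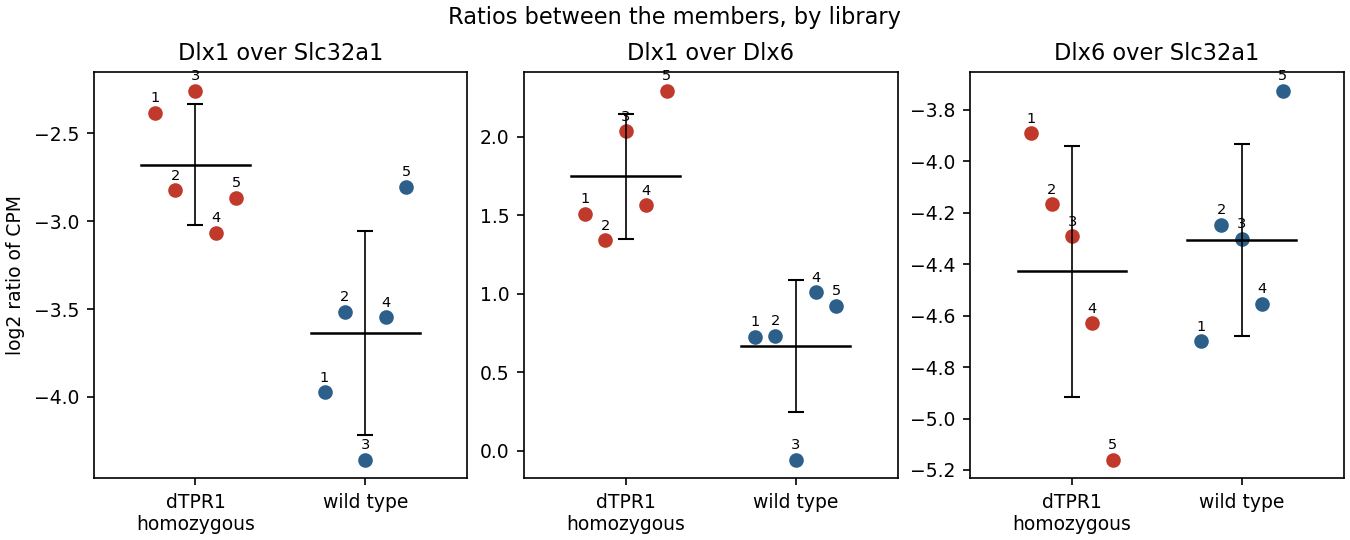
log2 ratios of CPM (prior count 2) between the 3 members in each library, dTPR1 homozygous in red on the left of each panel and wild type in blue on the right, with the mean and SD of 5 libraries in black and animal numbers beside the points. The groups do not overlap for Dlx1 over Dlx6 (1.34 to 2.29 in dTPR1 homozygous and -0.06 to 1.01 in wild type), and they overlap in the other panels.

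The members' own IDs, which hold reads of the other strand, were nearly empty for 2 of the 3. Slc32a1's own ID held 2 counts over the 10 libraries and that of Dlx6 held 4, fewer than the ID facing it held in any library. Dlx1 was different: its own ID held 316, 118, 224, 330 and 352 counts in dTPR1 homozygous animals 1 to 5, and 265, 245, 192, 223 and 319 in wild-type animals 1 to 5. These 2584 counts outnumber the 731 at the Dlx1as ID that were taken for Dlx1. Read as the other IDs were, these counts are of RNA from the strand of Dlx1as, which has an ID that faces it under the rule. Of the 5396 exon bases of Dlx1 only 335 (6.21%) face an exon of Dlx1as. How many of the counts are of Dlx1as itself could therefore not be told. The level at the Dlx1 ID was 342.7 ± 116.7 CPM in dTPR1 homozygous and 306.1 ± 51.8 CPM in wild-type cortex (SD, n = 5 each; log2 difference 0.096, exact permutation p = 0.762). It did not follow the level taken for Dlx1, with r = -0.45 (permutation p = 0.192) and rho = -0.33 (permutation p = 0.351) over the 10 libraries, and r = -0.22 (p = 0.630) without the 2 farthest.

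Of the other Dlx genes and the GABA-synthesising enzymes few could be read. Gad1 and Gad2, which encode the glutamate decarboxylases that make GABA, and Dlx2, Dlx3 and Dlx5 have no ID that faces them under the rule, so their RNA is not measured here. Their own IDs held 32, 15, 0, 0 and 12 counts over the 10 libraries. Dlx4 has an ID that faces it but was not among the genes tested, and its own ID held 0 counts. Of 12 genes listed for GABA synthesis and transport, 2 were read and tested and 0 were called: Slc32a1 and Aldh5a1, the succinate semialdehyde dehydrogenase that ends GABA breakdown. Aldh5a1 averaged 100.2 ± 26.3 CPM in dTPR1 homozygous and 136.4 ± 17.6 CPM in wild-type cortex (SD, n = 5 each), with a log2 fold change of -0.44 ± 0.25 and a slope on Ppp1r1b of 0.12 ± 0.12, neither called.

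Among 20 GABA receptor and scaffold genes, 3 were tested and 0 called by genotype or by slope. Gphn, the scaffold gephyrin of inhibitory synapses, had a log2 fold change of -0.15 ± 0.64. Gabra5, a subunit of receptors largely outside synapses, had 0.27 ± 0.41 and a slope on Ppp1r1b of -0.48 ± 0.14 (unadjusted p = 0.00410, adjusted p = 0.636 in edgeR). Its slope thus had the sign opposite to that of Slc32a1. Of 30 Dlx and other forebrain GABA lineage factors, 5 were tested and 0 called: beside Dlx1 and Dlx6 these were Zeb2 and Maf, both active in migrating interneurons, and Nkx6-2, and Satb1 was counted at 0. Zeb2 and Maf had slopes of -0.22 ± 0.19 and -0.13 ± 0.19, and the 3 tested factors other than Dlx1 and Dlx6 all had negative slopes. Of 29 markers of cortical interneuron subtypes 1 was tested, the nitric oxide synthase gene Nos1, with a slope of 0.03 ± 0.33. The interneuron markers Pvalb, Sst and Vip had no level, so whether cortical interneuron RNA varied between the pieces was not tested.

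Of the striatal markers, Penk and Rarb rose with Ppp1r1b, and the levels of the list stand beside those of the members. Of 30 listed, 5 were tested; their summed level ran from 716 to 2716 CPM in dTPR1 homozygous and from 1087 to 5857 CPM in wild-type libraries. Apart from Ppp1r1b itself 4 of 4 had positive slopes and 2 passed, with a median slope of 0.88, against 0.0026 over all genes. Because the list was chosen with earlier results of these data known, these slopes are no independent check of it. Syndig1l, also abundant in striatum, had a slope of 0.83 ± 0.21 (adjusted p = 0.574 in edgeR), and Arpp21 had 0.03 ± 0.16. Whether striatal tissue in the cortex pieces accounts for the levels of the members was not tested. The cortical excitatory markers, of which 5 of 29 were tested, summed to 4127 to 7177 CPM in dTPR1 homozygous and 4004 to 10038 CPM in wild-type libraries. Of them 4 had negative slopes on Ppp1r1b and 0 were called. Neurod1, a factor of excitatory neurons, had -0.52 ± 0.15 (unadjusted p = 0.00313, adjusted p = 0.574 in edgeR). This was the smallest slope p among the 4 most abundant of them. The rest of those 4 had slopes from -0.32 ± 0.20 to 0.11 ± 0.28, each above 0.05 before adjustment. Of 16 markers of the olfactory bulb and subventricular zone, where Dlx genes are active in adults, only Gpsm1 was counted (slope 0.25 ± 0.33), with Eomes at 0. Gpsm1 ran from 6.17 to 48.3 CPM in dTPR1 homozygous and from 13.0 to 59.7 CPM in wild-type libraries. A single gene gives no level for those tissues. In the lists for oligodendrocytes (2 tested), astrocytes (3), microglia (2) and vessels, choroid plexus and ependyma (5), 0 genes were called by genotype or slope. Among their most abundant genes the smallest genotype p-values were those of Bcas1, a gene of myelin-forming cells, at 0.62 ± 0.19 (log2 fold change, unadjusted p = 0.00448), and Hes5, a Notch target, at -0.87 ± 0.28 (unadjusted p = 0.00630), with an adjusted p of 0.999 for each in edgeR. The glutamate transporter gene Slc1a2 had 1.07 ± 0.51 (unadjusted p = 0.0568).

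The genes most like each member over the 10 libraries, by Pearson's r of log2 CPM, were not the same for the 3. Closest to Slc32a1 were Smarcd3 (r = 0.97), a subunit of the BAF chromatin remodelling complex, Pdxk (0.95), the kinase that makes pyridoxal phosphate, Rimkla (0.94), which joins N-acetylaspartate to glutamate, Gorasp1 (0.94), a Golgi stacking protein, and Tmem91 (0.90). Ppp1r1b had rank 38 in that order. Closest to Dlx6 were Bckdha (0.92), a subunit of the enzyme that breaks down branched-chain keto acids, Aifm2 (0.90), Lrrc55 (0.87), an auxiliary subunit of BK potassium channels, Gorasp1 (0.87) and Zfp90 (0.87), with Ppp1r1b at rank 71. Closest to Dlx1 were the amino acid transporter Slc43a2 (0.87), Gm48249 (0.85), A230072E10Rik (0.85), the AMP deaminase Ampd3 (0.85) and C230038L03Rik (0.84), with Ppp1r1b at rank 324. Gorasp1 is on the lists of both Slc32a1 and Dlx6, and no gene is on the list of Dlx1 and another member. Each of these genes was read at an ID that faces it, and all share the same libraries and depth. Some of those IDs are of other named genes, such as Chpf2 and Mir671 for Smarcd3, Wdr48 for Gorasp1 and B3gnt8 for Bckdha. Any reads of those other genes could not be told apart from reads of the gene named.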

How the data were processed

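Per the labels' protocols, RNA was extracted with TRIzol and the SENSE Total RNA-Seq kit gave single-end libraries. The authors deposited unnormalised read counts for 53090 Ensembl gene IDs in a file per library, and 0 rows name no gene. Per the submitters' processing notes TopHat, HTSeq, DESeq2 and build GRCm38.p5 were used; versions and the strand setting are not given in the sources used here. Depth was 667751 to 927242 counts per library.

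GENCODE M21 held 52403 of the IDs and lacked 687. Counts of 8188 IDs (88.0% of all counts) were summed for 7385 opposite-strand genes, an ID going to the gene with 90% or more of the exon bases that face it. The members and gene lists were chosen with earlier results of these data known. Sums were fitted with edgeR 4.0.16 in R 4.3.3 (robust quasi-likelihood, TMM factors, filterByExpr, Benjamini-Hochberg over all genes tested), for genotype, for the log2 CPM of Ppp1r1b (prior count 2) with genotype in the model, and for their interaction. Library sizes were the full totals. Ppp1r1b was left out of the slope calls. Permutation tests were two-sided, with all arrangements or, for correlations over 10 libraries, 100000 resamples (scipy 1.17.1, Python 3.11.15). The edgeR fits for genotype and for the level were tested on simulated counts, with a level free of counting error. The interaction, DESeq2 and limma-voom were not tested in this way. Replicates are separate animals per the labels.

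The text names the 3 members and Ppp1r1b, the other Dlx genes, Gad1 and Gad2, the 4 most abundant tested genes of a list where it gives values, and the 5 genes most like each member; Nkx6-2 and the genes whose slopes passed were named after their values were seen. A gene that this rule selects is not reported here, and the fits include it. Alternatives were DESeq2 1.42.0 and its size factors, upper-quartile factors, limma-voom (limma 3.58.1), dropping the filter or setting it at 1 CPM in 5 libraries, shares of 50% and 100% of opposite bases, no mitochondrial IDs, age or animal number in the model, other striatal markers as level, no genotype in the slope model, a prior count of 0.5, and libraries left out.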

Additional observations from a re-analysis of the deposited data

Results flagged for a closer look

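Of 16 groups of 5 libraries examined for a single library far from the others, 1 stood out: the log2 ratio of Dlx1 over Dlx6 in wild-type cortex, where animal 3 had -0.057 against 0.73 to 1.01 in the other wild-type animals. Chance marks about 1 in 20 such groups. Animal 3 is also the wild-type library with the highest Dlx6 and Ppp1r1b. Without it the difference in this ratio between dTPR1 homozygous and wild-type cortex was 0.90, against 1.08 with it.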

How the results depend on the processing

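Of 395 alternatives over 21 results, 352 kept the direction and the side of the threshold. Without the filter on low counts the genes called were 1 by genotype and 8 by the Ppp1r1b level, and the Slc32a1 slope of 0.51 passed. In that setting 540 of 5176 genes had an unadjusted p under 0.05 by genotype in edgeR, against 57 of 2019 with the filter. Calls by level were 0 without wild-type animals 2 and 3, and 1 to 3 with 1 library left out (1 without wild-type animal 3 or 5). With the mean of Penk, Rarb and Syndig1l as level the Slc32a1 slope was 0.57, also past the threshold, and the Dlx6 correlation rose to 0.72 and passed; with Arpp21 added to that mean, 1 gene was called by level. With 1 library left out the correlation of Slc32a1 ran from 0.69 to 0.85. It missed the threshold without dTPR1 homozygous animal 4 or wild-type animal 2 or 3. It also missed it at 0.55 without the 2 farthest libraries, 0.53 without wild-type animals 2 and 3 and 0.76 in genotype deviations. The correlation of Dlx6 ran from 0.47 to 0.75 with 1 library left out. It passed without dTPR1 homozygous animal 1, 2 or 5 or wild-type animal 4. That of Dlx1 ran from 0.017 to 0.46 and did not pass.

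Reversed genotype differences were 0.18 and, in log2 CPM, 0.089 (Slc32a1) and 0.23 (Dlx6) without wild-type animals 2 and 3, and 0.26 (Slc32a1) and 0.26 (Dlx6) with the Ppp1r1b level in the model. Slope differences reversed to 0.081 (Slc32a1) and 0.41 (Dlx6) without those animals, and to 0.013 (Slc32a1) and 0.080 (Dlx6) with the other markers as level; with 1 library left out they ran from -0.79 to -0.18 (Slc32a1), -0.93 to 0.30 (Dlx1) and -1.91 to 0.099 (Dlx6). The ratio difference of Dlx1 over Slc32a1 ran from 0.78 to 1.17 with 1 library left out and was 0.76 without wild-type animals 2 and 3; that of Dlx6 over Slc32a1 ran from -0.26 to 0.060. These ratio alternatives were added after the data were seen. The cause of these changes was not tested.

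The animal numbers did not pair the genotypes: deviations of same-numbered animals correlated between -0.11 and 0.097. With the number as a replicate block, 0 genes were called by genotype and 1 by the Ppp1r1b level, and the slopes were 0.42 for Slc32a1, 0.29 for Dlx1 and 0.24 for Dlx6. Depth limits Dlx6 most, with 12 to 75 counts a library, and the standard error of the genotype difference had a median of 0.42 over all genes.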
